A study of Mus musculus with 4 samples.

Results

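The mitochondrial ribosomal protein genes were taken as all genes of the deposited table whose symbol is Mrpl or Mrps followed by digits and at most 1 further letter, with the 3 pseudogene symbols left out. This gave 78 of 16673 genes, 49 named for the large subunit (Mrpl) and 29 for the small subunit (Mrps). All 78 passed the filter on low values, a mean of at least 10 normalized counts, and 0 of them had a library without reads. RNA was sequenced from lineage-negative (Lin–) bone marrow cells, which remain after cells with markers of mature blood lineages are removed, of 4 mice aged 2 months. The 2 mice labelled control carried floxed Tet3 alleles (Tet3F/F), and the 2 labelled cKO carried the same alleles with a Cre allele under Tie2 (Tie2+/cre; Tet3F/F). Tie2 (Tek) is expressed by endothelium and by blood cell precursors, so recombination is not limited to 1 blood lineage, and the control mice carry no Cre allele. TET3 oxidises 5-methylcytosine in DNA.

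Mitochondria keep their own ribosome, which makes only the few membrane proteins that are encoded by mitochondrial DNA. Its rRNAs come from that DNA, while its proteins are encoded in the nucleus, made in the cytosol and imported. Some of these proteins descend from bacterial ribosomal proteins, and others have no bacterial counterpart. In the marrow, heme synthesis and red cell maturation depend on mitochondria.

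Symbols and structure do not match in every case. Mrps18a and Mrps30 carry small-subunit names but sit in the large subunit, and Mrps36 is known as a subunit of the 2-oxoglutarate dehydrogenase complex rather than of the ribosome. The symbol rule counts these 3 genes with the small subunit, and values with another assignment are given where they are compared. Of the 78 genes, 46 are counted as encoding descendants of bacterial ribosomal proteins. Another 31 are counted as encoding proteins found only in mitochondrial ribosomes (mitochondria-only below), among them Mrps18a and Mrps18b, which are related to bacterial S18. In the mouse annotation used for positions (GENCODE M21) the 78 genes lie on 17 autosomes and 0 on X or Y, with the highest counts on chromosomes 11 (11 genes), 17 (8 genes) and 6 (7 genes).

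The start regions of these genes are shown first because many are shared with a second gene. Of the 69 members matched by symbol to RefSeq's promoter table (build GRCm38.p6, which is not the build of the reads), 26 (37.7%) had another gene starting on the opposite strand within 1000 bases upstream. The share was 19.3% among the 11236 matched genes that were tested and 12.2% among all 27025 genes of the table. Mrps12, the decoding-centre protein that corresponds to bacterial S12, lies head to head with Sars2, the mitochondrial seryl-tRNA synthetase. Mrpl43 lies head to head with Twnk, the helicase that unwinds mitochondrial DNA. Mrpl46 and Mrps11, 1 gene of each subunit, start 42 bases apart. Below are the stretches between the paired starts of Mrps12 and Sars2 (chr7:28741822-28741967, minus strand) and of Mrpl43 and Twnk (chr19:45006443-45006557, minus strand), read towards the first-named gene. The 80 bases before the starts of Mrps26 (a small-subunit protein without a bacterial counterpart), Mrpl33 and Mrpl9 (descendants of bacterial large-subunit proteins) follow, as 3 genes with a match close to their start. Capitals mark matches, on either strand, to CCGGAAGT (GABPA and other ETS factors), GCATGCGC (the core of the NRF1 motif), the YY1 motif or CCAAT (the CCAAT box).
Mrps12 to Sars2: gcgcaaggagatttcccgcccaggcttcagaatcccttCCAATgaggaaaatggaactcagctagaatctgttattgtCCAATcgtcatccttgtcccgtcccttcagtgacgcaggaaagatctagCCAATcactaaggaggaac
Mrpl43 to Twnk: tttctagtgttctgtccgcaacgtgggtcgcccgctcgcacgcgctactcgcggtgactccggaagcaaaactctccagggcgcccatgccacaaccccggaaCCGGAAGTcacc
Mrps26: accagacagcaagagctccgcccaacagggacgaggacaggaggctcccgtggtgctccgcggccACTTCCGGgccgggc
Mrpl33: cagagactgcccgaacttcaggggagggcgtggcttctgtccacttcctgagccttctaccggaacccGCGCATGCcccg
Mrpl9: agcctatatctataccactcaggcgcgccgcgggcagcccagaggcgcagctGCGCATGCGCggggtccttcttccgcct

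In the 250 bases before the start, the ETS motif was found in 10 of the 69 matched members (14.5%), against 6.39% of matched genes tested and 3.23% of all promoters of the table. The NRF1 core was found in 8 members (11.6%), 7 of the large and 1 of the small subunit, against 4.77% of matched genes tested and 2.56% of all promoters. GABPA and NRF1 are the classic activators of nuclear genes for mitochondrial proteins. The NRF1 core overlaps its own reverse complement, so the run in Mrpl9 matches on both strands. The YY1 motif was found in 1 member (1.45%, against 0.774% of genes tested and 0.359% of all promoters), and in 5 members (7.25%, against 2.23% and 0.995%) when 50 bases after the start were included. The remaining motifs were about as frequent in members as in the genes tested or less so. CCAAT was found in 36.2% against 40.3% (37.5% of all promoters), TATAAA in 7.25% against 8.32% (14.3%), CACGTG in 7.25% against 9.62% (6.86%) and the GC box GGGCGG in 47.8% against 60.7% (35.4%). These are matches of letters in a window, with no test.

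The recovered reads summed to between 28845037 and 46673855 per library, of which the 78 genes took 0.359% and 0.412% under the control label (replicate 1, then 2, as throughout) and 0.312% and 0.359% under the cKO label. Tet3 itself had 5056 and 6593 normalized counts under the control label and 6400 and 5084 under the cKO label. This count covers the whole gene, and which exons are floxed is not given in the labels, so it checks no label. The labels do not give sex. Xist was at most 9.57 normalized counts under the control label and at least 48951 under the cKO label, and Ddx3y was at 0 only in the latter, so sex and genotype cannot be told apart in any value below. Control replicate 2 stood apart: reads of the 13 mitochondrially encoded mRNAs made up 8.16% of its total, against 0.989% to 1.26% in the others. Progenitor markers were present in every library, with 0 of 10 stem and progenitor markers at 0. They summed to 32550 and 32386 normalized counts under the control label and 40865 and 39161 under the cKO label. The sums were apart with cKO higher (ratio of means 1.23), and 4 of 10 markers were higher in both libraries labelled cKO. Of all genes tested 19.2% were. The part of the difference in progenitor markers in the values below was not tested. In such bulk samples, fewer cells of a type and less RNA per cell cannot be told apart.

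Most mitochondrial ribosomal protein transcripts were at a slightly lower level under the cKO label, and none passed the test. The log2 fold change (cKO against control, with 1 added to each normalized count before taking logs, as for all fold changes here) was below 0 for 71 of the 78 genes, against 49.2% of the 16598 genes tested. Its median was -0.29 over the members and 0.0082 over all genes tested. The summed level of the 78 genes was 130018 and 153450 normalized counts under the control label and 104946 and 123774 under the cKO label. The groups did not overlap, and the ratio of their means was 0.807. The 2 libraries of each group differed by nearly as much, by a ratio of 1.18 in both groups.

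By limma with Benjamini-Hochberg adjustment over all genes tested, 0 of the 78 genes had an adjusted p under 0.05, where 0.0723% of all genes tested did. At an unadjusted p under 0.05, 9 members were lower and 0 higher, against 2.61% and 3.49% of all genes tested. On the recovered reads edgeR called 0 members (8 at an unadjusted p under 0.05) and DESeq2 0 (10 at an unadjusted p under 0.05). Over all genes tested they called 0.0723% and 0.645%, with 6.13% and 7.24% at an unadjusted p under 0.05. With the replicate number as a block limma called 0 members, with 10 at an unadjusted p under 0.05, where 0.0482% and 6.35% of all genes were. In 46 members the 2 cKO values were both under the 2 control values, against 19.5% of all genes tested. In 1 member, Mrpl49, both lay above, against 19.2%.

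**Figure D1:**
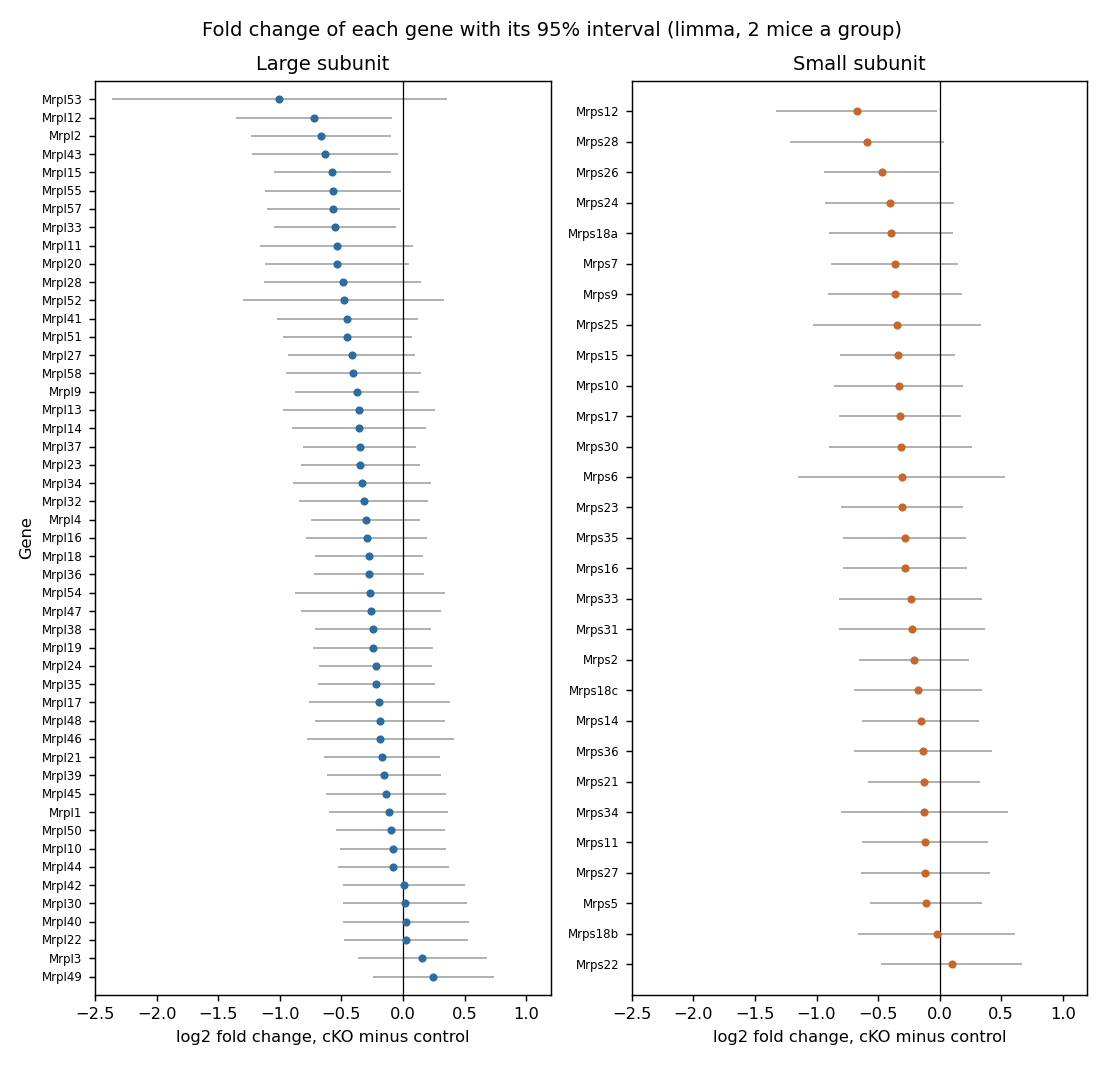
The horizontal axis gives the log2 fold change (cKO minus control) of each gene, with genes in rows, the large subunit on the left and the small subunit on the right. Points are limma estimates and lines their 95% intervals (2 mice a group). Of the 78 points 71 lie left of 0, and 69 of the 78 intervals reach across it.

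The large and the small subunit had nearly the same shift. The median log2 fold change was -0.29 over the 49 Mrpl genes (43 below 0) and -0.29 over the 29 Mrps genes (28 below 0), a difference of -0.0080 between the medians. The groups were apart, with cKO lower, in 30 of 49 and in 16 of 29, against 19.5% of all genes tested. The summed level of the large subunit was 88021 and 104262 normalized counts under the control label and 70721 and 83526 under the cKO label. That of the small subunit was 41996 and 49188 against 34225 and 40249. The ratio of large to small subunit sums was 2.10 and 2.12 under the control label and 2.07 and 2.08 under the cKO label. The 2 groups of ratios did not overlap, but they differed by little beside the gap between libraries in the sums themselves. With Mrps18a and Mrps30 counted with the large subunit, the medians were -0.30 and -0.28, and with Mrps36 left out the small-subunit median was -0.29. The 46 descendants of bacterial proteins had a median of -0.31 (43 below 0, 32 with both libraries labelled cKO lower) and the 31 genes of mitochondria-only proteins a median of -0.24 (27 below 0, 14 with both lower). These medians are descriptions of lists and carry no test. Of all genes tested, 49.2% were below 0 and 19.5% had both libraries labelled cKO lower.

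**Figure D2:**
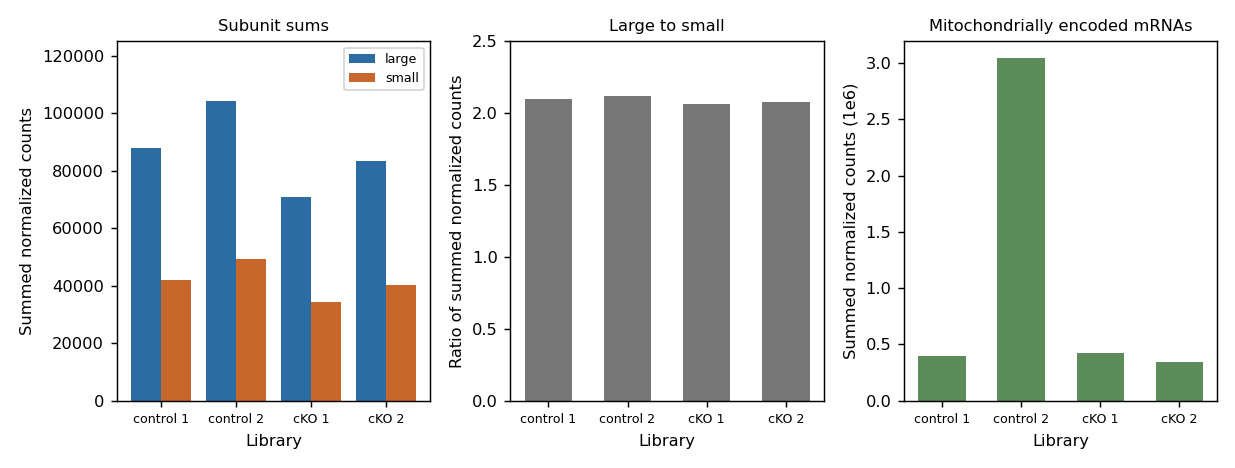
Bars give, for each library, the summed normalized counts of the large and small subunit genes (left), their ratio (middle) and the summed normalized counts of the 13 mitochondrially encoded mRNAs (right). The ratio stays between 2.07 and 2.12 while the subunit sums are highest in control 2 and lowest in cKO 1, and the mitochondrially encoded mRNAs are high in control 2 alone.

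Across the 4 libraries most of the 78 genes had the same library highest and the same library lowest. Control replicate 2 was the highest library for 54 of them, against 34.0% of all genes tested, and cKO replicate 1 the lowest for 69, against 27.5%. The full order control 2, control 1, cKO 2, cKO 1 was seen in 35 members (44.9%), against 9.68% of all genes tested. The next most common order, with cKO 2 above control 1, was seen in 15 members (19.2%, against 6.04%). The median deviation from the gene's own mean was 0.039 and 0.26 under the control label and -0.27 and -0.021 under the cKO label for the large subunit. For the small subunit it was 0.0050 and 0.27 against -0.26 and -0.011. Control replicate 1 and cKO replicate 2 were therefore close to each other in both subunits, and the gap between the groups was mostly between the other pair. The median log2 fold change of the members was -0.15 without control replicate 2 (69 of 78 below 0) and -0.16 without cKO replicate 1 (67 below 0). It was -0.41 without control replicate 1 (67 below 0) and -0.43 without cKO replicate 2 (75 below 0).

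**Figure D3:**
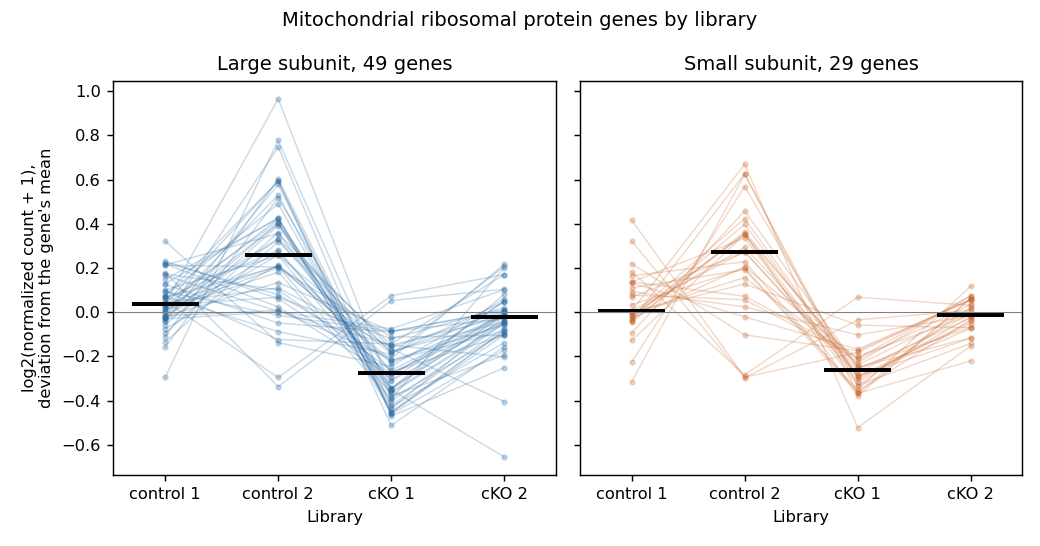
Each line is 1 gene, and the vertical axis is its log2(normalized count + 1) in each library minus its own mean over the 4 libraries, with the large subunit on the left and the small on the right. Black bars are medians. Both panels have the same shape, high in control 2 (0.26 and 0.27) and low in cKO 1 (-0.27 and -0.26).

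Among the large-subunit genes, Mrpl12 had the highest count and one of the widest ranges. It encodes the stalk protein that recruits translation factors to the ribosome. It had 4192 and 7169 normalized counts under the control label and 3082 and 3588 under the cKO label. The groups did not overlap, and control replicate 2 lay far above the rest (log2 fold change -0.72, SE 0.27, adjusted p = 0.76 by limma with Benjamini-Hochberg). Without control replicate 1 it passed the test (-1.11, limma with Benjamini-Hochberg adjusted p = 0.036), in a comparison with control replicate 2 alone that called 2.38% of all genes tested. There only the cKO pair gives the spread, and the lone control library is assumed to vary like that pair. In that comparison 29 members were at an unadjusted p under 0.05, against 22.6% of all genes. Without control replicate 2 its log2 fold change was -0.33.

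The other genes of the stalk and its base were Mrpl10 and Mrpl11. Mrpl10, the stalk's anchor, had 2328 and 2161 normalized counts under the control label and 2057 and 2191 under the cKO label. Its groups overlapped (-0.079, SE 0.18, 95% interval -0.51 to 0.35). Mrpl11, at the base of the stalk where factors are bound, had 1504 and 2311 against 1128 and 1465, with the groups apart (-0.54, SE 0.27, adjusted p = 0.76 by limma with Benjamini-Hochberg). The order of libraries for Mrpl11 was that of Mrpl12, while Mrpl10 was highest in control replicate 1.

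The large-subunit genes with the smallest p-values besides Mrpl12 were Mrpl15, Mrpl2, Mrpl33, Mrpl43 and Mrpl57, and all had an adjusted p of 0.76 (limma with Benjamini-Hochberg). Mrpl15, a descendant of a bacterial large-subunit protein, had 2195 and 2656 normalized counts under the control label and 1522 and 1730 under the cKO label (log2 fold change -0.57, SE 0.20). Mrpl2, which lies beside the peptidyl transferase centre, had 2415 and 3462 against 1609 and 2060 (-0.67, SE 0.24). Mrpl33 had 4049 and 4975 against 2702 and 3450 (-0.56, SE 0.21). In each of these genes both libraries labelled cKO were lower than both labelled control, and cKO replicate 1 was the lowest. Mrpl43, a mitochondria-only protein, had 1255 and 1842 against 887 and 1085 (-0.63, SE 0.25). Mrpl57, another mitochondria-only protein, had 1560 and 2083 against 1102 and 1346 (-0.57, SE 0.23). Mrpl58, a peptidyl-tRNA hydrolase built into the subunit that can free stalled chains, had 1333 and 1757 against 1037 and 1291 (-0.40, SE 0.23). These 3 genes had the same order of libraries as Mrpl12.

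Mrpl53 and Mrpl17 were the lowest large-subunit genes per kilobase. Mrpl53 had 50.8 and 97.3 normalized counts under the control label and 38.5 and 31.0 under the cKO label (log2 fold change -1.0, SE 0.58). This was the largest fold change of the 78 in size, in the gene with the fewest reads. All exon bases of its principal transcript are shared in GENCODE M21 with Gm42688 on the same strand, which had 198 to 211 normalized counts in every library, so its count is uncertain. Mrpl17, near the exit of the peptide tunnel, had 1784 and 2010 against 1349 and 2038, with overlapping groups (-0.19, SE 0.25). Its log2 fold change was 0.11 without cKO replicate 1.

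Among the small-subunit genes, Mrps12 had the largest fold change. It had 1173 and 1858 normalized counts under the control label and 814 and 1051 under the cKO label (log2 fold change -0.67, SE 0.28, adjusted p = 0.76 by limma with Benjamini-Hochberg). Mrps28 had 1043 and 1655 against 831 and 920 (-0.59, SE 0.27), and Mrps26 had 1932 and 2217 against 1397 and 1593 (-0.47, SE 0.20). In these 3 genes the groups did not overlap. Mrps24, which corresponds to bacterial S3 at the mRNA entry, had 1509 and 2046 against 1249 and 1406 (-0.41, SE 0.23). Mrps15, which binds the small-subunit rRNA, had 2162 and 2492 against 1689 and 1991 (-0.34, SE 0.20). Both kept the groups apart, with cKO replicate 1 lowest. Mrps35, a mitochondria-only protein, had 1531 and 1888 against 1285 and 1513 (-0.29, SE 0.21). Mrps21, a small rRNA-binding protein, had 1341 and 1465 against 1288 and 1278 (-0.13, SE 0.20). Mrps25, a mitochondria-only protein, had 1041 and 1804 against 986 and 1182 with overlapping groups (-0.34, SE 0.29), and 0.054 without control replicate 2. The sign for Mrps25 turned when control replicate 2 was left out.

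The family of bacterial S18 has 3 members, of which Mrps18c takes its place and Mrps18a and Mrps18b hold other positions and are counted here with the mitochondria-only proteins. Mrps18a, in the large subunit despite its name, had 1328 and 1388 normalized counts under the control label and 923 and 1157 under the cKO label (log2 fold change -0.39, SE 0.22, 95% interval -0.90 to 0.11), with the groups apart. Mrps18c, the small-subunit protein in the place of bacterial S18, had 973 and 1145 against 856 and 1017 (-0.18, SE 0.22, 95% interval -0.70 to 0.34), with overlapping groups. Mrps18b, a further small-subunit protein, had 915 and 596 against 714 and 736 (-0.026, SE 0.27, 95% interval -0.66 to 0.61). It was lowest in control replicate 2, and without control replicate 1 its log2 fold change was 0.28. The intervals of the 3 genes overlap, and the difference between them was not tested. Mrps30, the other large-subunit protein with a small-subunit name, had 1249 and 1644 against 988 and 1341 (-0.32, SE 0.25), with overlapping groups.

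A few members were low in control replicate 2. It was the lowest library for 5 members (34.1% of all genes tested had it lowest), Mrpl49, Mrpl3, Mrps34, Mrps22 and Mrps18b, of which the first 4 are named after their values were seen. Mrpl3, a core protein at the peptidyl transferase centre, had 2807 and 1964 normalized counts under the control label and 2572 and 2665 under the cKO label. Mrps34, a mitochondria-only protein, had 1033 and 631 against 682 and 805, and Mrps22, likewise mitochondria-only, had 930 and 672 against 858 and 836. Mrpl49 had 1630 and 1284 against 1659 and 1773, the one member with both libraries labelled cKO above both labelled control (log2 fold change 0.24, SE 0.21, adjusted p = 0.79 by limma with Benjamini-Hochberg). Its head-to-head neighbour Fau, which encodes a cytosolic ribosomal protein, was high in control replicate 2 (22334 and 36660 against 18358 and 22373).

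Levels were compared between genes per kilobase of the principal transcript's exons in GENCODE M21. In the large subunit Mrpl33 (7937 normalized counts per kilobase) and Mrpl12 (3425) were highest, and Mrpl17 (246) and Mrpl53 (78.3) lowest. In the small subunit Mrps21 (2751) and Mrps15 (2224) were highest, and Mrps35 (373) and Mrps25 (206) lowest. This order depends on the transcript model. Per kilobase of all merged exons, Mrpl33 moved from rank 1 to rank 44 of 78, while Mrpl12 (rank 2 and rank 1), Mrps21 (rank 6 in both) and Mrpl53 (rank 78 in both) stayed at their ends. For 12 members more than 20% of the principal transcript's exon bases are shared with another gene, among the named ones Mrpl33 (37.0%), Mrpl43 (27.5%, with Twnk on the opposite strand), Mrpl53 (100%), Mrps25 (75.6%), Mrps34 (62.7%), Mrps18b (59.1%) and Mrps18c (27.3%). For Mrpl33, Mrpl53 and Mrps18c the gene sharing most bases lies on the same strand, where counting by strand would not separate the reads. For the other named ones it lies on the opposite strand, and the sources used here do not give whether strand was used in counting. The counts of all these genes are therefore uncertain.

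Transcript length moved with the result. Over the 13198 tested genes with a principal transcript, median log2 fold changes were below 0 in shorter eighths and above 0 in longer ones. The median log2 fold change of genes other than the members ran from -0.19 in the shortest eighth (38 to 1283 bases) to 0.24 in the longest (5869 bases or more). The same trend was present within both groups. Control replicate 2 exceeded control replicate 1 by a median of 0.18 in the shortest eighth and fell short of it in the longest (-0.12), and cKO replicate 2 against cKO replicate 1 gave 0.21 and -0.27. The members are short, with a median of 1302 bases against 2932 over all genes with a length, and 38 of the 78 lie in the shortest eighth. There, the members' median log2 fold change was -0.32. The 60 members of up to 2932 bases had a median of -0.30, with 54 below 0 and both libraries labelled cKO lower in 37. The 6539 other genes of that range had a median of -0.11, with 62.3% below 0 and 27.7% with both lower. The 18 members longer than the median length of all genes had a median of -0.27, with 17 below 0 and both lower in 9. The 6581 other genes of that range had a median of 0.11, with 36.4% below 0 and 12.5% with both lower. These 18 genes have a median coding length of 617 bases against 2061 in the other genes of that range, so they are long by their annotated exons and not by their coding part. With the length trend taken out of each library, a step added after seeing the data, the members' median was -0.15 with 60 of 78 below 0, against -0.0010 over all genes in that fit. The subunit medians were then -0.15 (large) and -0.14 (small), and limma with Benjamini-Hochberg adjustment called 0 members and 0.0303% of all genes, with 5 members at an unadjusted p under 0.05 (5.73% of all genes). The 60 shorter members then had a median of -0.094 and the 18 longer ones -0.35. The trend taken out was not uniform within the shortest eighth. Mrpl33 (478 bases) moved from -0.56 to -1.07 and Mrps21 (488 bases) from -0.13 to -0.65, and Mrpl52 (418 bases) also moved further below 0. The members' median moved the other way, from -0.29 to -0.15. At the lengths of these genes the trend taken out was therefore above 0, unlike the median of their eighth.

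**Figure D4:**
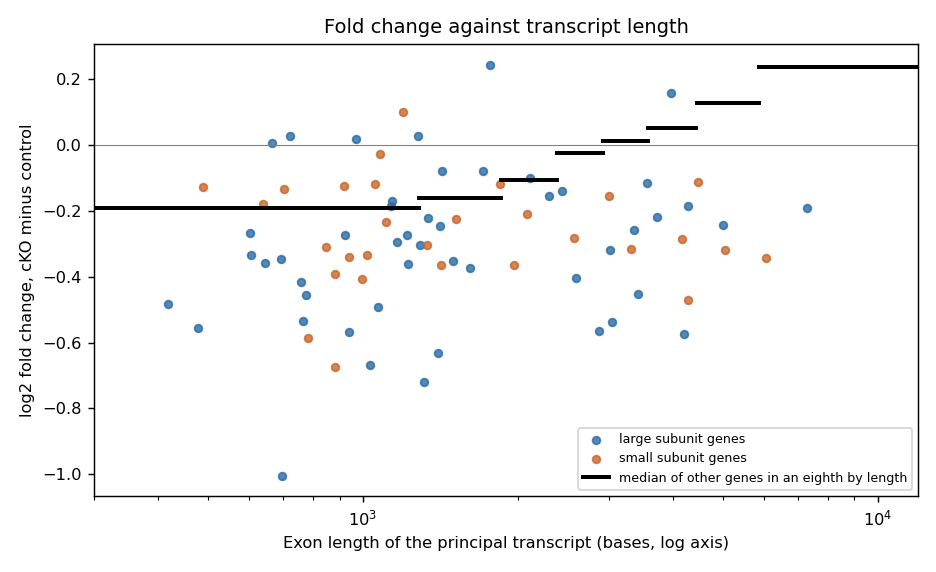
The horizontal axis is the exon length of the principal transcript in bases (log axis), and the vertical axis is the log2 fold change, cKO minus control. Points are the 78 genes by subunit, and black bars are medians of the other genes in each eighth by length. The bars rise from -0.19 to 0.24 with length, while the points stay mostly below 0 at all lengths.

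The rest of the mitochondrial translation pathway was given by lists. The 5 mitoribosomal proteins under other symbols (Dap3, Aurkaip1, Chchd1, Gadd45gip1 and Ptcd3) all had a log2 fold change below 0, with a median of -0.16. Aurkaip1, of the small subunit, had 2502 and 3364 normalized counts under the control label and 1795 and 2500 under the cKO label (-0.45, SE 0.24). Gadd45gip1, of the large subunit, had 1204 and 1606 against 1124 and 1120 (-0.31, SE 0.22). In both genes the groups did not overlap, though for Aurkaip1 cKO replicate 2 lay just below control replicate 1. Of 26 genes for ribosome assembly and rRNA modification, 20 were below 0 (median -0.16), with both libraries labelled cKO lower in 10 and higher in 2. The shares over all genes tested were 49.2% below 0, 19.5% with both lower and 19.2% with both higher. Rcc1l, an assembly factor, had 1483 and 1899 against 1146 and 1295 (-0.46, SE 0.22), and Mpv17l2, which takes part in assembly, had 1237 and 1179 against 884 and 1025 (-0.34, SE 0.21).

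The other 3 nuclear lists had medians nearer to 0, and the difference between lists was not tested. Of 15 translation and insertion factors in the table, 8 were below 0 (median -0.055). Tsfm, the exchange factor of elongation, had 1264 and 2789 normalized counts under the control label and 1019 and 1377 under the cKO label (-0.66, SE 0.37), and Mrrf, the ribosome recycling factor, had 729 and 681 against 803 and 923 (0.29, SE 0.22). For Tsfm the groups overlapped, with control replicate 2 above the other libraries, and for Mrrf both cKO values were higher. The log2 fold change of Tsfm was -0.093 without control replicate 2. It was -1.23 without control replicate 1 (adjusted p = 0.046 by limma with Benjamini-Hochberg), against control replicate 2 alone. Of 21 genes for charging mitochondrial tRNAs, 12 were below 0 (median -0.078). Sars2 had 1245 and 1502 against 1023 and 1001 (-0.43, SE 0.21), and Wars2, the tryptophanyl-tRNA synthetase, had 403 and 274 against 489 and 404 (0.42, SE 0.31). Of 13 genes for mitochondrial transcription and its nuclear regulators, 10 were below 0 (median -0.11). Esrra, a nuclear receptor that drives mitochondrial genes, had 1768 and 2140 against 1406 and 1399 (-0.47, SE 0.20). Gabpa, the ETS factor named above, had 3550 and 2812 against 3892 and 3819 (0.29, SE 0.20), higher in both libraries labelled cKO. By limma with Benjamini-Hochberg adjustment 0 of these 80 genes passed, against 0.0723% of all genes tested. At an unadjusted p under 0.05 only Esrra did, where 2.61% of all genes tested were lower and 3.49% higher.

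**Figure D5:**
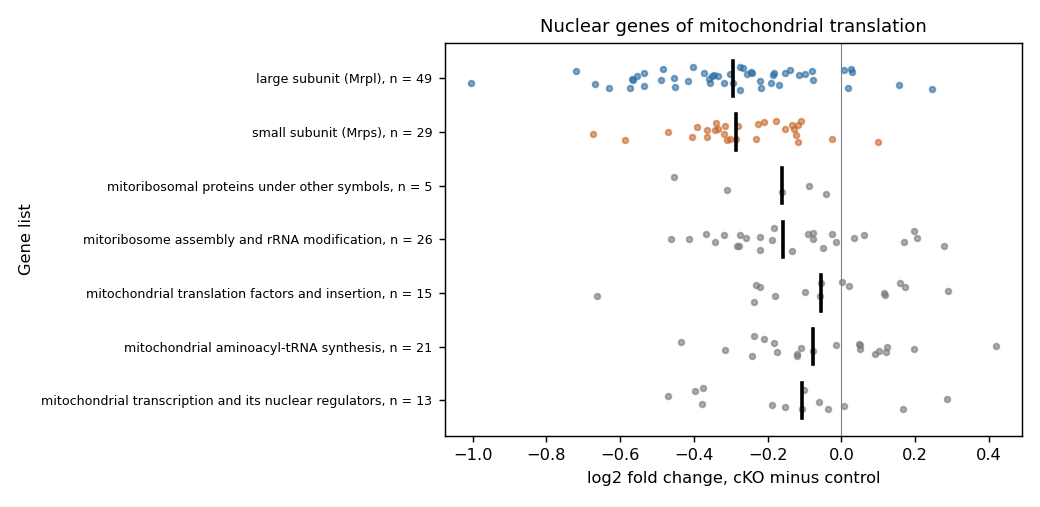
Each point is 1 gene, the horizontal axis is its log2 fold change (cKO minus control), and rows are the 2 subunits and 5 other lists of nuclear genes of mitochondrial gene expression. Black bars are medians, which lie at -0.29 for both subunits and between -0.16 and -0.055 for the other lists.

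The 24 head-to-head neighbours that were tested and are not themselves members had a median log2 fold change of -0.070, with 17 below 0, and their members had a median of -0.33. Beside Mrpl43, Twnk had 1488 and 2366 normalized counts under the control label and 1571 and 1582 under the cKO label (-0.25). Beside Mrps12, Sars2 was also lower in both libraries labelled cKO, as given above. Mrpl46 had 1064 and 774 against 718 and 888 and Mrps11 805 and 767 against 703 and 747, so the groups of Mrpl46 overlapped and those of Mrps11 did not.

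The templates of this ribosome were measured as the 13 mitochondrially encoded mRNAs, and its rRNAs were not analysed here. Summed, the mRNAs had 393408 and 3039440 normalized counts under the control label and 424041 and 340995 under the cKO label. Control replicate 2 was 7.73 times control replicate 1 in this sum, against 1.18 times for the 78 ribosomal protein genes. mt-Co3, a subunit of cytochrome c oxidase, had 198 and 2173 against 182 and 150 (-1.98, SE 0.94), and mt-Nd1, a subunit of complex I, had 52711 and 403457 against 50762 and 41884 (-1.66, SE 0.80). Neither passed with all 4 libraries. Without control replicate 2 the log2 fold changes were -0.25 and -0.19. Set against control replicate 2 alone, with the spread from the cKO pair only, both passed (limma with Benjamini-Hochberg, adjusted p 0.0021 and 0.0049), in the fit that called 392 genes (2.38%). Markers of red cell precursors were also highest in control replicate 2. For all 13 erythroid markers it was the highest library, 0 of 13 were at 0 in any library, and their sum was 34442 and 99812 under the control label and 46655 and 17184 under the cKO label. All 13 had a log2 fold change below 0 (median -1.19), but in 0 of them were both libraries labelled cKO lower than both labelled control. The erythroid sum was lowest in cKO replicate 2, while the ribosomal protein sum was lowest in cKO replicate 1. The 12 proliferation markers summed to 195779 and 189484 against 184674 and 174192, with the groups apart, cKO lower, and 0 at 0. Of these, 10 of 12 had a log2 fold change below 0 (median -0.092), against 49.2% of all genes tested. In 6 both libraries labelled cKO were lower, and in 0 both were higher. Summed markers of 4 other cell classes lay apart between the groups and those of 2 overlapped, with 0 of each list at 0 in any library. The 10 T and NK cell markers summed to 10149 and 7387 against 12793 and 12147, with 9 of 10 higher in both libraries labelled cKO. The 9 B and plasma cell markers summed to 43253 and 16369 against 65972 and 76559, with 4 of 9 higher in both. The 6 stromal and osteolineage markers summed to 21076 and 19969 against 4724 and 9211, with 4 lower in both and 1 higher in both. The 5 endothelial markers summed to 4602 and 3387 against 6004 and 4893, with the groups apart and 3 of 5 higher in both. Their median log2 fold change was 0.85. Of all genes tested, 19.2% were higher in both and 19.5% lower in both. The 10 neutrophil markers had overlapping sums (592232 and 186142 against 372435 and 466389), as had the 8 macrophage markers (3445 and 2477 against 2713 and 3942). Of all these markers limma with Benjamini-Hochberg adjustment called 0, where 0.0723% of all genes tested were called. At an unadjusted limma p under 0.05, 3.49% of all genes tested were higher and 2.61% lower. Higher were 8 of 10 T and NK cell, 3 of 9 B and plasma cell, 2 of 10 stem and progenitor and 1 of 5 endothelial markers. Lower were 4 of 6 stromal and osteolineage, 2 of 13 erythroid, 1 of 10 neutrophil, 1 of 8 macrophage and 1 of 12 proliferation markers. The part of these differences, and of transcript length, in the levels of the ribosomal protein genes was not tested beyond the values given.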

How the data were processed

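RNA-seq libraries of 4 mice were analysed, 2 per group. Deposited was 1 signal value per gene and library, named as DESeq2-normalized counts. That these are read counts divided by 1 size factor per library was taken from the values themselves, as given below. The submitters' processing notes name Trim Galore 0.6.7, STAR 2.7.9a, SAMtools, featureCounts and DESeq2, with mm39 as the build. How counting was set (annotation, strand) was not given in the sources used here. No gene had fewer than 41 reads summed over all libraries. The columns WT1 and WT2 were matched to control replicates 1 and 2 by their number.

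All values (100%, within 0.1 read) were whole multiples of 1 read, so whole reads were recovered, with size factors of 1.08 and 1.25 (control) and 0.857 and 0.870 (cKO). Genes with a mean normalized count of at least 10 were tested (16598) with limma 3.58.1 in R 4.3.3, two-sided, on log2 values after adding 1, with a variance trend, Benjamini-Hochberg adjustment and a threshold of 0.05. There were 2 residual and 5.48 prior degrees of freedom. With 2 against 2, exact permutation reaches no p below 0.333. Recovered reads were also tested with edgeR 4.0.16 and DESeq2 1.42.0. The scripts' tests were tested on simulated data. Further alternatives were other pseudocounts, filters, scalings and variance models, the replicate number as a block, leaving out X, Y and mitochondrial genes, leaving out each library, another assignment to subunits and, chosen after seeing the data, removing the length trend and leaving out Mrps36.

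The members and lists were chosen with earlier results of these data known. Named members were, per subunit, the 6 with the smallest p, the 2 highest and 2 lowest per kilobase and the 2 with the widest range, and also Mrpl10, Mrpl11, Mrpl12, Mrpl58, Mrps12, Mrps18a, Mrps18b, Mrps18c and Mrps30. Each pathway list gave the 2 genes with the smallest p. Other named genes were chosen after their values were seen.

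Lengths and chromosomes came by symbol from GENCODE M21, and promoters from RefSeq (GRCm38.p6), both on an older build than the reads. The labels give 2 mice per genotype, and p-values cover the spread between these libraries.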

Additional observations from a re-analysis of the deposited data

How the results depend on the processing

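Leaving out 1 library at a time, the median log2 fold change ran from -0.43 to -0.16 for the large subunit and from -0.42 to -0.13 for the small subunit, and the difference between them from -0.054 (without cKO replicate 1) to 0.013. The count of members called ran from 0 to 1, the 1 being Mrpl12 without control replicate 1. A group left with 1 library is assumed to vary like the other. Under the other 13 settings applied to all genes 0 members were called. Over the 16598 genes tested, deviations from the group mean had a correlation of -0.074 between control 1 and cKO 1. For the summed members, replicate 2 exceeded replicate 1 by a ratio of 1.18 in both groups. Whether same-numbered libraries are paired cannot be told from these values, and the labels do not say. With the replicate block limma called 0 members, and 8 of all genes against 12. Over all genes, the count called was 107 with DESeq2, 8 with a mean of at least 50, with quantile normalization or with no trend, 4 with the length trend removed, 3 without X, Y and mitochondrial genes, and 392, 33, 33 and 18 without control 1, control 2, cKO 1 and cKO 2.

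With 1 library left out, the log2 fold change ran from -0.49 to 0.11 for Mrpl17, from -0.74 to 0.054 for Mrps25 and from -0.33 to 0.28 for Mrps18b. With the length trend removed the sign turned for Mrpl10 (0.058), Mrps18b (0.20) and Mrps18c (0.097). Mrpl33 (-1.07) and Mrps21 (-0.65) kept their sign and moved further below 0. The cause was not tested. Of 593 values of 35 named genes under these settings, 583 kept their sign and side of the threshold. Settings that change only the filter, variance model, block or set of genes leave the log2 fold change as it was. Under those settings the sign could not turn, so this count is no measure of how firm the values are. With 2 mice a group, the interval of 69 of the 78 genes includes 0, so a shift of the median's size was not detectable gene by gene at this number of mice.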
